A study of Homo sapiens with 20 samples.

Results

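GATA2, GATA3, GATA4 and GATA6 are zinc finger transcription factors of the GATA family, and their RNA was followed while human embryonic stem cells were driven towards surface epithelium (SE) and while FOXO4 or SP6 was knocked down on that path. The 4 genes were chosen by symbol, from 31155 gene identifiers measured in at least 1 comparison, as GATA2 (ENSG00000179348), GATA3 (ENSG00000107485), GATA4 (ENSG00000136574) and GATA6 (ENSG00000141448). GATA2 and GATA3, known from ectoderm, were set against GATA4 and GATA6, known from endoderm and heart. Bulk RNA was sequenced from H1, an established human embryonic stem cell (hESC) line, with 2 libraries in each of 10 groups. Wild-type H1 cells at day 3 of SE differentiation, the initiation stage, were compared with untreated wild-type hESC. H1 cells given a short hairpin RNA against FOXO4 (shFOXO4) were compared with H1 cells given a scramble hairpin at day 3 and at day 7, the maturation stage. H1 cells given a hairpin against SP6 (shSP6) were compared in the same way with scramble cells of their own at day 3 and day 7. All hairpin and scramble cells were under SE differentiation, and the labels give 1 cell line and do not say how many hairpins were used per gene. FOXO4 is a forkhead transcription factor and SP6 a zinc finger factor of the SP family.

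GATA factors recognise short DNA words built on the letters GATA and switch tissue programmes on, usually together with cofactors such as the FOG proteins (ZFPM1 and ZFPM2) and LMO2. GATA2 and GATA3 are known from blood, trophoblast, amnion and the non-neural ectoderm, where GATA3 acts early in response to BMP signals beside TFAP2 factors. GATA4, GATA5 and GATA6 are known from heart and endoderm. GATA1, the remaining family member, is the erythroid factor.

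GATA2, GATA3 and GATA6 were called higher in SE day 3 cells and lower in all 4 knockdown comparisons. GATA4 was left out of the motif search for a reason other than its calls, so the motifs give no contrast with it. The stretches just upstream of the annotated first exon are shown for the other 3 members, so that the letters searched for motifs can be seen. They are RefSeq promoter windows of build GRCh38.p14, written 5′ to 3′ on the gene's own strand and ended before the first base of an annotated exon of the gene. Capitals mark GC boxes (GGGCGG on either strand), the word that SP factors are known to bind.
GATA2 chr3:128488531-128488780 (- strand): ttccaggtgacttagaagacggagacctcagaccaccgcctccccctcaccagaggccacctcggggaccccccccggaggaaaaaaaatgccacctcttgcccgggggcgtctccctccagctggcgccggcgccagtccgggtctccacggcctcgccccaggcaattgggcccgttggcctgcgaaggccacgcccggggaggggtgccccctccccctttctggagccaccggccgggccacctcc
GATA3 chr10:8054438-8054652 (+ strand): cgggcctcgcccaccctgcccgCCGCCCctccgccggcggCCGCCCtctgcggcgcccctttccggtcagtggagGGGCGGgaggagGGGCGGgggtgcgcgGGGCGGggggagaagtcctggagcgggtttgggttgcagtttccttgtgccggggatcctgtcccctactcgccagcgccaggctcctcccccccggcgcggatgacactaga
GATA6 chr18:22169339-22169442 (+ strand): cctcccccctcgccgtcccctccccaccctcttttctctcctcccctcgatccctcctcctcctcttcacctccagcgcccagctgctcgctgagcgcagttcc
The search covered the full 250 bases before the RefSeq start, on both strands, for the GC box, for the FOXO core GTAAACA and for GATA sites, spelled AGATAA or TGATAA or AGATAG or TGATAG. The GATA3 window held 5 GC boxes, between 228 and 148 bases before the start, of which 2 lay on the opposite strand. The GATA2 and GATA6 windows held none, and none of the 3 windows held a FOXO core or a GATA site. Across 35116 RefSeq windows of the same length, 42.6% held a GC box, 2.98% a FOXO core and 22.3% a GATA site. No overlap between motifs occurred. G and C made up 71.2% of the GATA2 window, 73.6% of the GATA3 window and 64.4% of the GATA6 window. A match here is a run of letters and not a measured binding site.

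Depth was 14937104 to 30328846 reads per library in the 18 libraries whose reads could be recovered from the normalized values. The other 2 libraries had normalized totals of 18887684 and 20305180. Values below are normalized read counts, read counts divided by 1 size factor per library, for replicates 1 and 2 in that order. Changes are differences of mean log2(value + 1) ± SE from limma, a linear model fitted across all genes of a comparison, with Benjamini-Hochberg adjusted p and a threshold of 0.05. The labels do not say whether the libraries of a group came from separate cultures, so p-values measure the spread between these libraries, which may be technical. Both hairpins lowered their target. FOXO4 measured 322 and 319 in shFOXO4 cells at day 3, against 1875 and 2026 in scramble cells. At day 7 FOXO4 measured 35.5 and 35.5 in shFOXO4 cells and 1206 and 1009 in scramble cells. SP6 measured 203 and 322 in shSP6 cells at day 3, against 1790.3 and 1939 in scramble cells. At day 7 SP6 measured 85.7 and 93.1 in shSP6 cells and 4077 and 3040.1 in scramble cells. At day 3 SP6 was also low in shFOXO4 cells, at 395 and 438 against 1142 and 1296 in scramble cells, while FOXO4 measured 3197 and 3351 in shSP6 cells and 3084 and 3779 in scramble cells, with overlap. At day 7 each hairpin group was low in the other factor, with SP6 at 520.2 and 457 in shFOXO4 cells against 5230.1 and 4867 in scramble cells, and FOXO4 at 253 and 225 in shSP6 cells against 1513 and 1204 in scramble cells.

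All 4 members rose in day 3 SE cells relative to hESC, and they rose by very different amounts. Genes were tested if they averaged 10 or more over the 4 libraries of a comparison. All 4 members were under 10 in both hESC libraries, so that once tested they could only be higher in SE cells. GATA3 and GATA2 became abundant, GATA6 became moderate, and GATA4 stayed low. Of 16217 genes tested in this comparison 72.2% were called, 35.2% higher and 37.0% lower, so a call by itself sets no member apart.

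GATA3, the early surface ectoderm factor, measured 4924 and 4753 in SE day 3 cells, against 1.93 and 5.41 in hESC. The SE libraries lay far above the hESC libraries, which held 7 GATA3 reads in all. The ratio of summed reads, scaled to library size, was 1354 (95% interval 657 to 3369, counting error only), and the log2 change was 10.12 ± 0.26 (limma adjusted p = 2.31e-12). Only 7 of the tested genes had a higher log2 change.

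GATA2 measured 2121 and 2052 in SE day 3 cells and 3.86 and 8.66 in hESC. The groups did not overlap, and hESC held 12 GATA2 reads in all. Its ratio was 341 (95% interval 195 to 660), and its log2 change of 8.25 ± 0.25 (limma adjusted p = 9.22e-12) was exceeded by 23 genes.

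GATA6, known from primitive endoderm and heart, measured 120.1 and 89.7 in SE day 3 cells and 0 and 0 in hESC. No read was found in either hESC library. With a floor of 3 counts over the hESC group GATA6 was at least 68.6-fold higher in SE cells. The fitted log2 change was 6.71 ± 0.44 (limma adjusted p = 1.88e-08), and it depends on the added 1 because one group is at 0.

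GATA4, known from heart and gut endoderm, measured 35.8 and 35.9 in SE day 3 cells and 1.93 and 3.25 in hESC, where it had 5 reads. Its libraries also did not overlap between groups, at a level more than an order of magnitude below GATA2. The ratio was 14.1 (95% interval 5.75 to 44.6) and the log2 change 3.39 ± 0.43 (limma adjusted p = 1.05e-05), exceeded by 317 genes.

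Per length the order in SE day 3 cells was the same. Levels across libraries are given in CPM, the normalized count as a share of the library's normalized total on the usual counts-per-total scale. In CPM per kb of annotated exon, the mean was 85.7 for GATA3, 28.5 for GATA2, 1.62 for GATA6 and 0.491 for GATA4. With the longest annotated transcript as length the values were 94.2, 37.7, 1.69 and 0.639 for the same genes, in the same order.

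**Figure D1:**
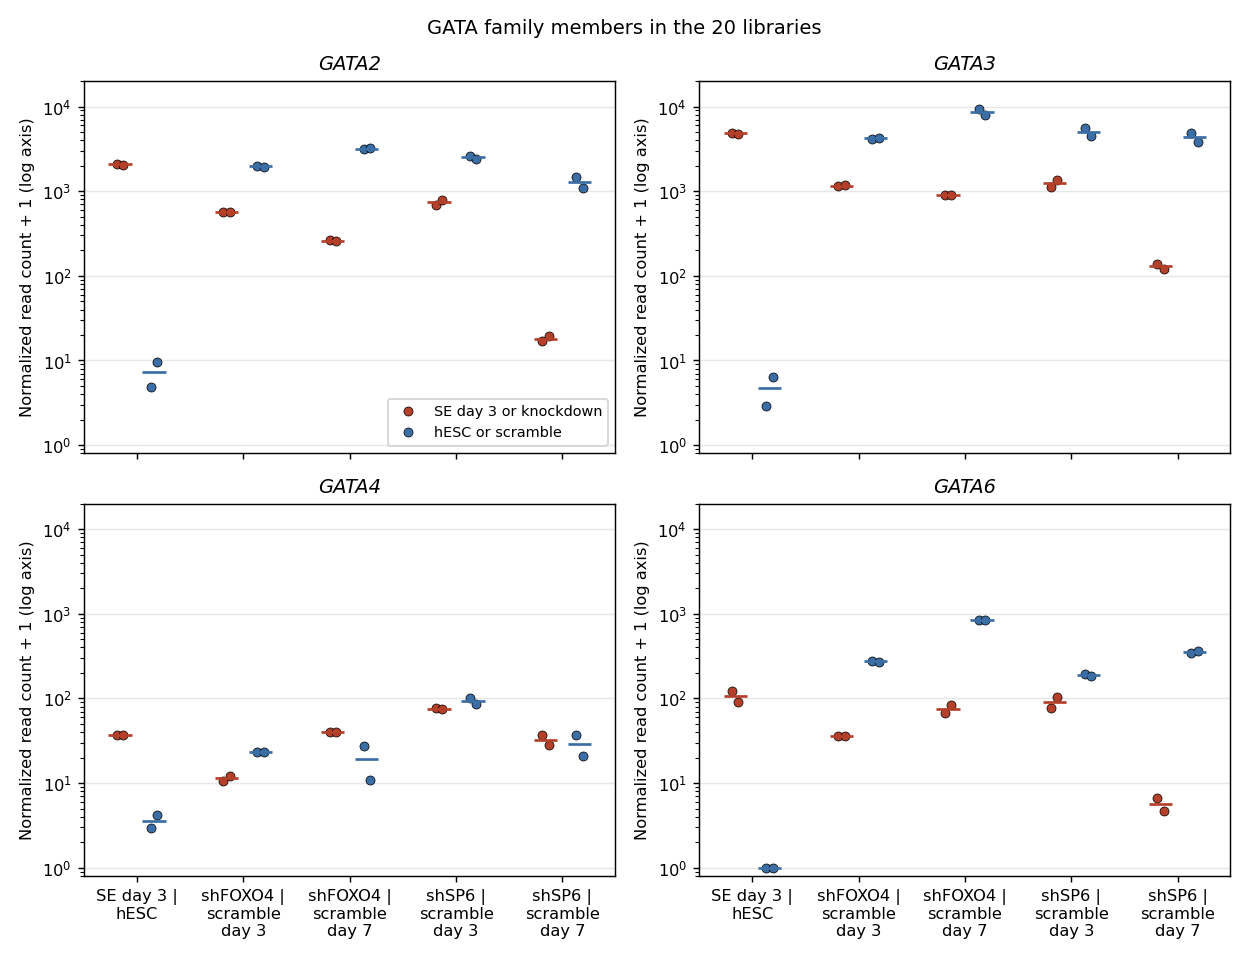
Normalized read count + 1 on a log axis for each member in all 20 libraries, with SE day 3 or knockdown cells (red) left of hESC or scramble cells (blue) in each of the 5 comparisons; points are libraries and bars the mean of 2. GATA2, GATA3 and GATA6 show red points below blue points in all 4 knockdown comparisons, whereas GATA4 lies above scramble at day 7 of shFOXO4 and overlaps scramble at day 7 of shSP6.

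Surface ectoderm markers were present in the cells in which GATA2 and GATA3 were high. All 15 of 15 tested surface ectoderm genes rose in SE day 3 cells, with a median log2 change of 6.13, against -0.02 over all genes. Among them TFAP2A, a partner of GATA3 in ectoderm, measured 5657 and 5721 in SE cells and 5.78 and 4.33 in hESC. TFAP2A, TFAP2B, MSX1, DLX5 and TP63, 5 of the 15, were under 10 in both hESC libraries, so that they could only rise. Of all tested genes 35.2% were called higher. The summed level of the list was 6948 to 7324 CPM in SE cells and 795 to 802 CPM in hESC. Of 11 BMP ligand and response genes 10 rose, with BMP4, the ligand, at 4080.2 and 3995 in SE cells against 60.7 and 65.0 in hESC. The pluripotency list was lower in part, with 8 of 13 genes lower and 4 higher, and NANOG measured 258 and 270.2 in SE cells against 1697 and 1799 in hESC. In bulk RNA, fewer cells of a type and less RNA per cell cannot be told apart, here and in the comparisons that follow.

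Markers of the other tissues in which GATA factors act moved too. Of 9 amnion genes 8 were tested and rose, but 6 of the 9 were under 10 in both hESC libraries and those tested of these could only rise. The list shares TFAP2A with the surface ectoderm list, BAMBI with the BMP list and HAND1 with the cardiac list, and it summed to 1563 to 1755 CPM in SE cells and 42.3 to 47.2 CPM in hESC. Of 14 cardiac mesoderm genes 9 were tested and 7 rose, with 10 of the 14 under 10 in both hESC libraries, among them HAND1 at 5291 and 4897 in SE cells against 3.86 and 1.08 in hESC. The cardiac list summed to 430 to 489 CPM in SE cells and 29.6 to 31.1 CPM in hESC. Most of the SE sum was HAND1, at 321 and 299 CPM, and ACTC1, at 139 and 108 CPM. ACTC1 was also most of the hESC sum, at 24.2 and 22.6 CPM. MEF2C was lower, at 8.43 and 16.1 in SE cells against 33.7 and 32.5 in hESC. TNNT2 did not rise, at 32.6 and 38.7 in SE cells against 43.4 and 49.8 in hESC. Of 14 endoderm genes 7 were tested, of which 3 rose and 2 fell. FOXA1 measured 83.2 and 69.0 in SE cells against 0.964 and 0 in hESC, and SOX7 49.5 and 54.8 against 5.78 and 17.3. CXCR4 was lower, at 6.32 and 3.78 in SE cells against 48.2 and 28.2 in hESC. So was FOXA3, at 206 and 213 in SE cells against 295 and 296 in hESC. The endoderm sum was 25.9 to 27.6 CPM in SE cells and 24.2 to 25.1 CPM in hESC, with HNF4A and TTR at 0 in both groups and FOXA2 and SOX17 at 0 in hESC. FOXA3 alone held 12.5 and 13.0 CPM of this sum in SE cells and 18.4 and 18.2 CPM in hESC. Of 10 trophoblast genes 8 were listed, all under 10 in both hESC libraries, so that those that passed the filter could only be higher in SE cells. Among them CDX2 measured 1788 and 1718 in SE cells, against 0 and 0 in hESC. The part of these cell types in the GATA levels was not tested.

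**Figure D2:**
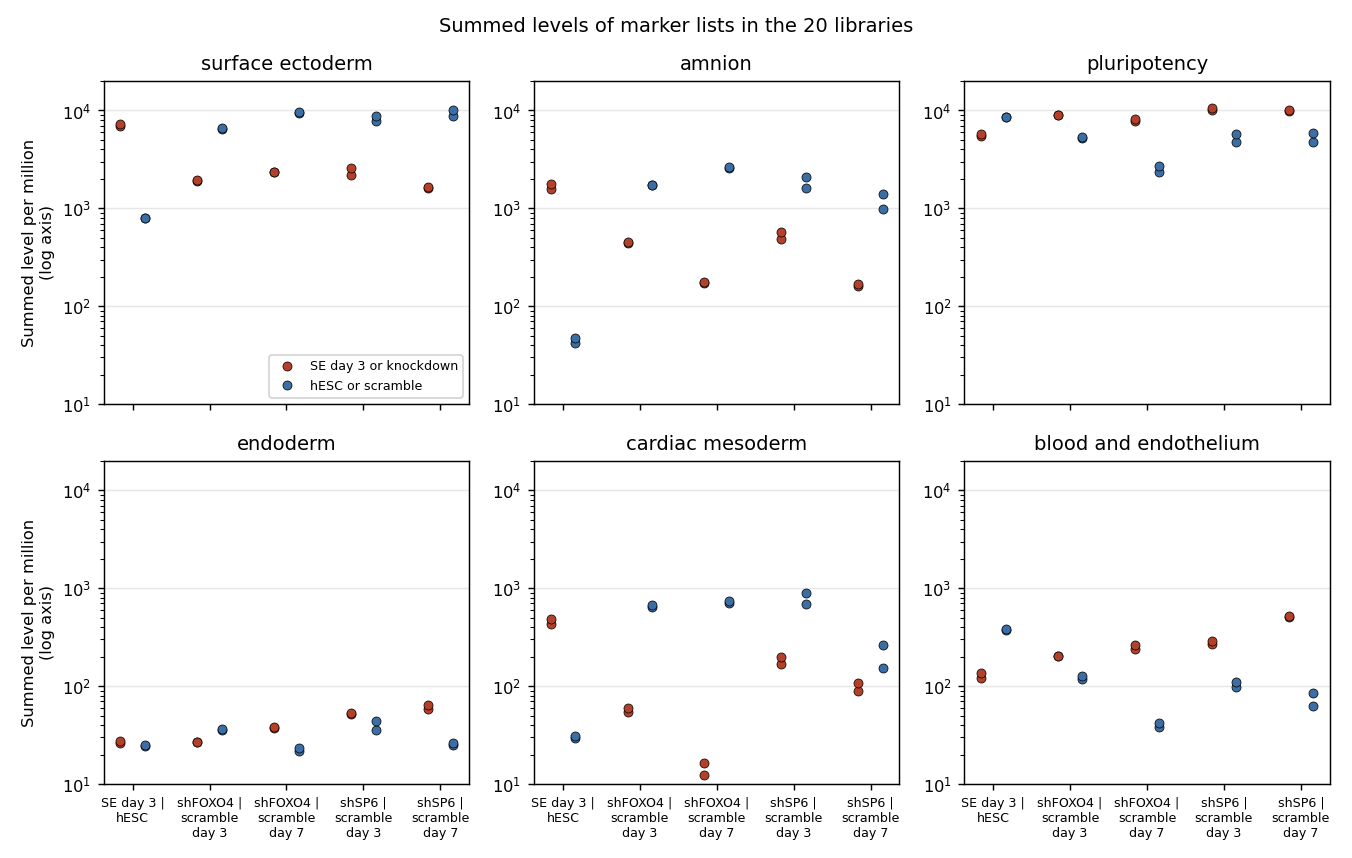
Summed level of 6 marker lists in CPM, the share of the library's normalized total, on a log axis, in each library, with SE day 3 or knockdown cells (red) left of hESC or scramble cells (blue). Surface ectoderm and amnion sums are lower in knockdown than in scramble cells in all 4 comparisons, pluripotency sums are higher, and endoderm sums reach at most 63.5 CPM.

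In shFOXO4 cells at day 3 all 4 members were lower than in scramble cells, GATA6 most and GATA4 least. Of 15697 genes tested 62.7% were called, 30.8% lower and 31.8% higher. GATA6 measured 35.1 and 34.5 in shFOXO4 cells, against 276 and 267 in scramble cells, and the shFOXO4 mean was 12.8% of the scramble mean. Its log2 change was -2.93 ± 0.15 (limma adjusted p = 1.03e-20), and 175 genes fell further. GATA3 measured 1148 and 1175 in shFOXO4 cells and 4162 and 4295 in scramble cells. GATA2 measured 559 and 567 in shFOXO4 cells and 1989 and 1930.0 in scramble cells. The replicates of both genes differed little beside the gap between groups. GATA3 had 27.5% of the scramble level left (log2 change -1.86 ± 0.05, limma adjusted p = 3.98e-32) and GATA2 had 28.7% left (-1.80 ± 0.06, adjusted p = 2.09e-28). GATA4 measured 9.56 and 11.2 in shFOXO4 cells and 22.5 and 22.0 in scramble cells. Those libraries did not overlap, and the change was -1.03 ± 0.36 (limma adjusted p = 0.0127). Leaving out 1 library at a time gave adjusted p of up to 0.0658 for GATA4, and the call was lost without either scramble library and without shFOXO4 replicate 1.

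At day 7 of shFOXO4, GATA2, GATA3 and GATA6 were lower again and GATA4 was higher. The background was 72.6% of 16374 tested genes called, with 35.4% lower and 37.1% higher. GATA2 measured 261 and 258 in shFOXO4 cells and 3177 and 3201 in scramble cells, which left 8.15% of the scramble level (log2 change -3.61 ± 0.07, limma adjusted p = 1.36e-09). GATA6 measured 65.7 and 81.5 in shFOXO4 cells and 844 and 852 in scramble cells, which left 8.68% (-3.52 ± 0.14, adjusted p = 5.33e-08). GATA3 measured 889 and 901 in shFOXO4 cells and 9366 and 7899 in scramble cells, which left 10.37% (-3.26 ± 0.08, adjusted p = 3.85e-09). In each of these genes the knockdown libraries lay far below both scramble libraries. GATA4 measured 39.4 and 38.7 in shFOXO4 cells and 26.7 and 9.996 in scramble cells. The groups did not overlap, but the scramble libraries differed more from each other than shFOXO4 replicate 2 did from scramble replicate 1. The GATA4 change was 1.197 ± 0.45 (95% interval 0.18 to 2.21, limma adjusted p = 0.0367), and leaving out the second scramble library brought it to 0.53 (adjusted p = 0.199). Leaving out the first scramble library brought the GATA4 change to 1.86 (adjusted p = 0.00299), and without either shFOXO4 library the call was lost as well, at 1.18 and 1.21.

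In shSP6 cells at day 3 GATA2, GATA3 and GATA6 were lower and GATA4 did not pass the test. Of 16548 genes 55.8% were called, 27.5% lower and 28.3% higher. GATA3 measured 1126 and 1339.7 in shSP6 cells and 5583 and 4496 in scramble cells, leaving 24.5% (log2 change -2.03 ± 0.10, limma adjusted p = 1.41e-07). GATA2 measured 682 and 791 in shSP6 cells and 2598 and 2419 in scramble cells, leaving 29.4% (-1.77 ± 0.08, adjusted p = 8.26e-08). GATA6 measured 76.0 and 103.0 in shSP6 cells and 194 and 182 in scramble cells, leaving 47.6% (-1.08 ± 0.17, adjusted p = 2.96e-04). Among these 3 genes GATA6 kept the largest share of its scramble level. GATA4 measured 75.2 and 74.8 in shSP6 cells and 101 and 86.0 in scramble cells, a change of -0.31 ± 0.17 (95% interval -0.69 to 0.07, limma adjusted p = 0.153).

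At day 7 of shSP6 GATA2, GATA3 and GATA6 fell to a few percent of the scramble level or less, and GATA4 did not pass the test. Here 58.6% of 17535 tested genes were called, 29.6% lower and 29.0% higher. GATA2 measured 15.8 and 18.4 in shSP6 cells and 1458 and 1099 in scramble cells, leaving 1.33% (log2 change -6.14 ± 0.19, limma adjusted p = 1.13e-08). GATA6 measured 5.67 and 3.67 in shSP6 cells and 344 and 365 in scramble cells. With 12 GATA6 reads left in shSP6 cells, the scramble to shSP6 ratio was 71.0 (95% interval 40.4 to 138, counting error only) and the log2 change -5.99 ± 0.28 (limma adjusted p = 1.23e-07). GATA6 was under 10 in both shSP6 libraries, so that once tested it could only be lower here. GATA3 measured 139 and 120.0 in shSP6 cells and 4837 and 3822 in scramble cells, leaving 2.99% (-5.05 ± 0.13, adjusted p = 3.34e-09). Only 62 genes had a lower change than GATA2, 66 than GATA6 and 122 than GATA3. GATA4 measured 35.9 and 26.9 in shSP6 cells and 36.4 and 19.9 in scramble cells. These libraries overlapped, and the change of 0.20 ± 0.36 (95% interval -0.60 to 0.9965, limma adjusted p = 0.655) turned negative without shSP6 replicate 1 or without scramble replicate 2.

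**Figure D3:**
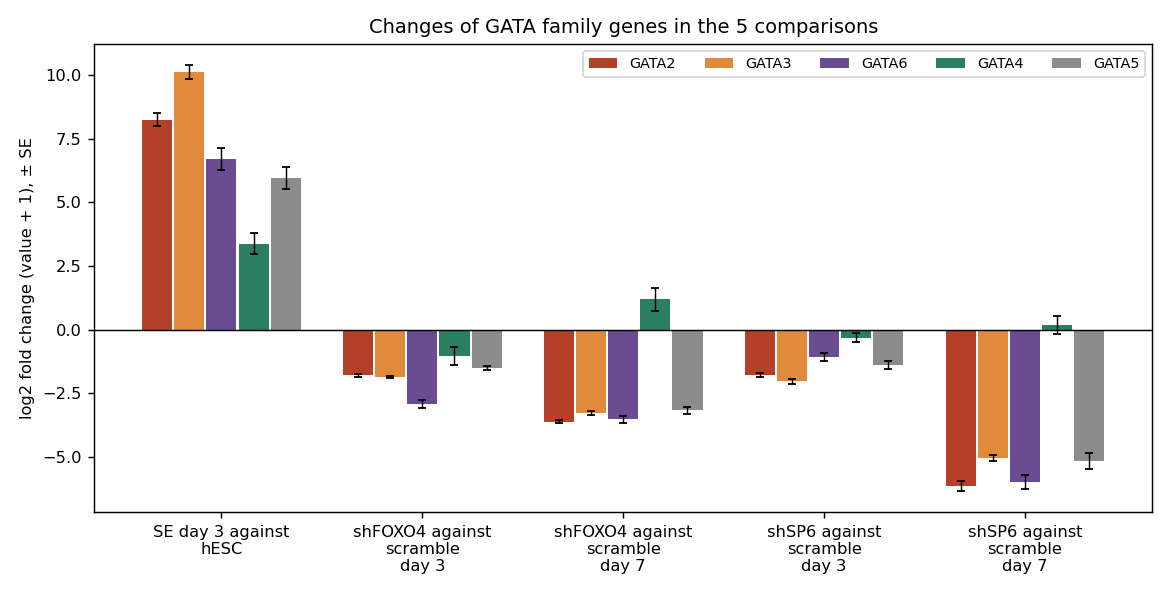
log2 fold change on the value + 1 scale (bars, with SE from limma as error bars) of the 4 members and of GATA5 in the 5 comparisons; bars start at 0. GATA2, GATA3, GATA6 and GATA5 are above 0 in SE day 3 cells and below 0 in every knockdown, and GATA4 has the smallest bar in each comparison.

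At day 7 of both knockdowns GATA6 was lower along with GATA2 and GATA3, and GATA4 was not. At day 3 of shFOXO4 all 4 genes were called lower, and at day 3 of shSP6 GATA4 was not called. In each library, log2(value + 1) of GATA6 minus the mean of GATA2 and GATA3 was set beside the same difference for GATA4. The GATA6 difference averaged -2.70 in shFOXO4 cells and -2.63 in scramble cells at day 7, with overlapping libraries, and -3.12 in shSP6 cells and -2.72 in scramble cells at day 7, again overlapping. At day 3 it averaged -4.50 in shFOXO4 cells and -3.40 in scramble cells, and -3.41 in shSP6 cells and -4.23 in scramble cells, with no overlap and with opposite signs of the shift. The GATA4 difference at day 3 averaged -6.15 in shFOXO4 cells and -6.95 in scramble cells, a smaller shift than that of GATA6, and -3.65 in shSP6 cells and -5.23 in scramble cells. The GATA4 difference averaged -3.59 in shFOXO4 cells and -8.23 in scramble cells at day 7, and -0.59 in shSP6 cells and -6.38 in scramble cells at day 7. These shifts of 4.63 and 5.79 mostly restate the lower GATA2 and GATA3. The log2 change of GATA4 itself was 1.197 at day 7 of shFOXO4 and 0.20, not called, at day 7 of shSP6. In SE day 3 cells the GATA6 difference averaged -4.92, against -2.45 in hESC. GATA6 was 0 in both hESC libraries, so that the hESC value reflects only the few GATA2 and GATA3 reads and sets no level for GATA6. The GATA4 difference averaged -6.43 in SE day 3 cells, against -0.63 in hESC, where GATA2, GATA3 and GATA4 had few reads. No GATA4 difference overlapped between groups. These are descriptions of chosen genes, with no test.

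**Figure D4:**
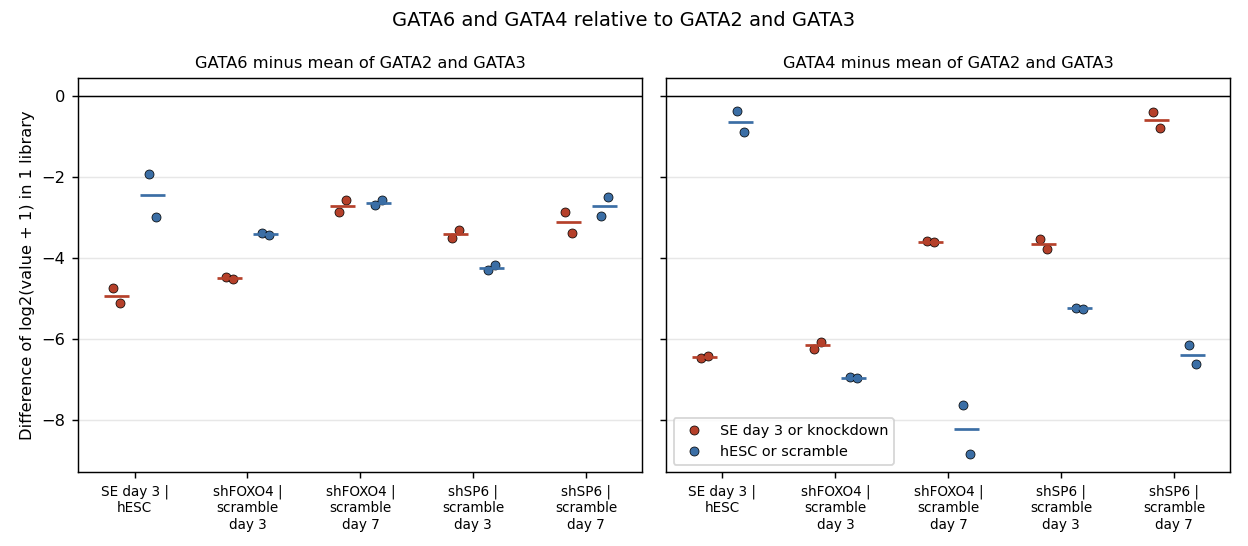
Difference of log2(value + 1) between GATA6 (left panel) or GATA4 (right panel) and the mean of GATA2 and GATA3 within each library, with SE day 3 or knockdown cells (red) left of hESC or scramble cells (blue); bars are means of 2 libraries. The GATA6 points of knockdown and scramble overlap at day 7 in both knockdowns. The GATA4 points of knockdown lie above scramble in all 4, in which GATA2 and GATA3 themselves were lower.

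GATA3 relative to GATA2 was higher in knockdown than in scramble cells at day 7 and lower at day 3, by little in shFOXO4 cells at day 3. At day 7 GATA3 minus GATA2 on the log2 scale averaged 2.85 in shSP6 cells and 1.76 in scramble cells, against 1.78 in shFOXO4 cells and 1.43 in scramble cells at the same day. At day 3 it averaged 0.74 in shSP6 cells and 0.9987 in scramble cells, and 1.04 in shFOXO4 cells and 1.11 in scramble cells. None of these overlapped between groups of 2 libraries each. At day 3 of shFOXO4 the scramble libraries, at 1.06 and 1.15, differed more from each other than the group means did. No test was made of these differences, and other gene pairs were not set beside them. The scales were set separately in each comparison, but a difference of 2 genes within a library does not depend on them beyond the added 1.

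Whether the effect of a hairpin differed between days or between hairpins was tested as a contrast over the 8 libraries of both comparisons, with different scramble libraries on each side. A negative difference means a stronger fall, or a smaller rise, in the comparison named first. The shFOXO4 effect was stronger at day 7 than at day 3 for GATA2, by -1.81 ± 0.09 (95% interval -1.998 to -1.63, limma adjusted p = 5.46e-10), and for GATA3, by -1.40 ± 0.10 (adjusted p = 2.01e-08). For GATA6 the difference was -0.59 ± 0.20 (95% interval -1.01 to -0.16, limma adjusted p = 0.0184), a call that was lost in a fit over all 20 libraries (adjusted p = 0.0897), without shFOXO4 day 7 replicate 1 (0.0546) and without day 3 scramble replicate 2 (0.066). For GATA4, positive at day 7 and negative at day 3, the difference was 2.23 ± 0.58 (limma adjusted p = 0.00394) and ranged from 1.56 to 2.90 without 1 library. All 4 members passed, against 62.7% of 14954 genes. The shSP6 effect was stronger at day 7 for 3 of 4 members, against 35.1% of 15992 genes called. The differences were -4.91 ± 0.31 for GATA6 (limma adjusted p = 7.38e-07), -4.37 ± 0.19 for GATA2 (adjusted p = 4.01e-08) and -3.02 ± 0.19 for GATA3 (adjusted p = 6.23e-07). For GATA4 it was 0.51 (95% interval -0.37 to 1.38, adjusted p = 0.352).

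Between hairpins at day 3, GATA6 was the only member whose effects passed the test of a difference, where 36.8% of 15476 genes were called. The shSP6 effect minus the shFOXO4 effect was 1.85 ± 0.22 for GATA6 (95% interval 1.38 to 2.32, limma adjusted p = 9.42e-06), so that GATA6 fell less in shSP6 than in shFOXO4 cells. For GATA2 the difference was 0.03 (95% interval -0.18 to 0.24, adjusted p = 0.849) and for GATA3 it was -0.16 (95% interval -0.42 to 0.09, adjusted p = 0.317). For GATA4 the interval was 0.04 to 1.41 and the adjusted p 0.0924. Without scramble replicate 2 of shSP6 day 3 the GATA3 difference was -0.32 with an adjusted p of 0.00792. At day 7 the shSP6 effect was stronger than the shFOXO4 effect for 3 of 4 members, against 49.0% of 16043 genes called, by -2.52 ± 0.19 for GATA2 (limma adjusted p = 1.29e-06), -2.48 ± 0.29 for GATA6 (adjusted p = 3.00e-05) and -1.78 ± 0.16 for GATA3 (adjusted p = 4.77e-06). For GATA4 the difference was -0.9975 (95% interval -2.35 to 0.36, adjusted p = 0.204), and -1.67 with an adjusted p of 0.0248 without scramble replicate 1 of shFOXO4 day 7. The share of target RNA left differed between the hairpins and days as given above, and its part in these differences was not tested.

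**Figure D5:**
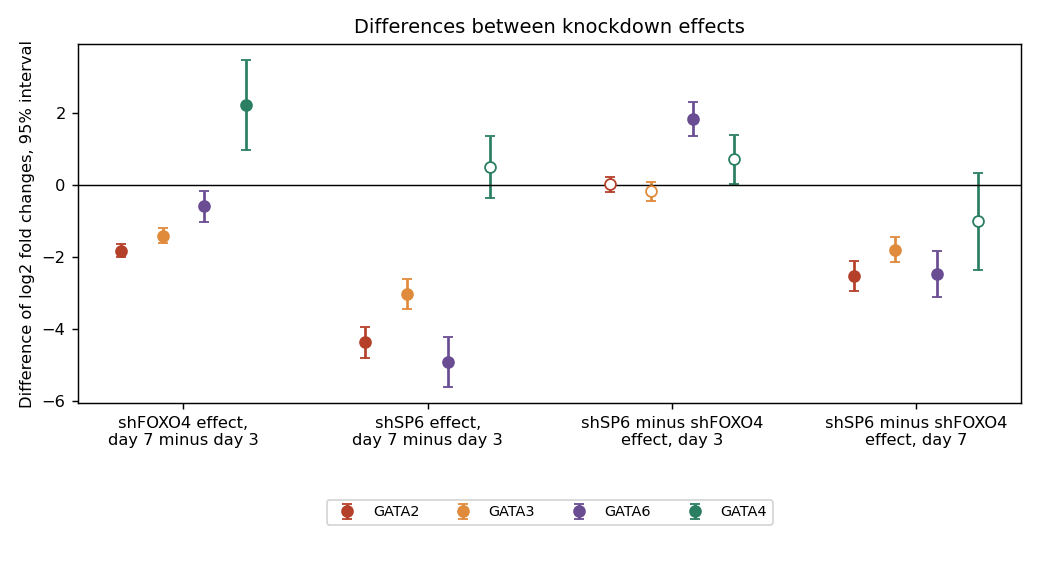
Difference between knockdown effects (points, log2 scale) with 95% intervals from limma for the 4 members; filled points passed an adjusted p of 0.05 and open points did not. GATA2, GATA3 and GATA6 lie below 0 for day 7 minus day 3 in both knockdowns, and GATA4 lies above 0 for shFOXO4.

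Levels of the members over the 10 groups are given in CPM, side by side and without a test, since the 5 sets were scaled separately. GATA2 ran from 0.387 ± 0.208 in hESC and 0.895 ± 0.100 in shSP6 day 7 cells to 169.1 ± 0.442 in the day 7 scramble cells of shFOXO4 (SD, n = 2 each). SE day 3 cells, at 127 ± 2.50, and the day 3 scramble cells of shSP6, at 123 ± 5.39, overlapped in GATA2. GATA3 had the same groups at both ends, 0.227 ± 0.151 in hESC, 6.78 ± 0.669 in shSP6 day 7 cells and 458 ± 56.2 in the day 7 scramble cells of shFOXO4. The other 3 scramble groups overlapped with a neighbour in GATA3, with means between 219.6 and 247 CPM. GATA6 was highest in the day 7 scramble cells, 45.0 ± 0.189 for shFOXO4 and 18.0 ± 0.852 for shSP6, and lowest in shSP6 day 7 cells, 0.245 ± 0.073, apart from hESC at 0. GATA4 had another order, highest at day 3 in the scramble cells of shSP6, at 4.58 ± 0.489, and in shSP6 cells, at 3.78 ± 0.015. In GATA4 the shSP6 day 7 cells and 3 of the 4 scramble groups spread over 0.975 to 1.65 CPM, and each of them overlapped with the next lower group.

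GATA5, the third gene of the heart and endoderm group and no member of the 4, had the same signs of change as GATA6. It measured 509 and 535 in SE day 3 cells and 15.4 and 3.25 in hESC. Its log2 changes were 5.97 ± 0.44 in SE cells, -1.51 ± 0.10 and -3.17 ± 0.13 in shFOXO4 cells at day 3 and day 7, and -1.38 ± 0.15 and -5.15 ± 0.32 in shSP6 cells at day 3 and day 7, all called by limma. GATA1 had values of 0 to 1.93 wherever it was listed and was not tested.

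The antisense transcripts next to 3 members followed them. GATA2-AS1 measured 376 and 373 in SE day 3 cells against 0.964 and 0 in hESC, and 3.15 and 1.22 in shSP6 day 7 cells against 380.2 and 262 in scramble cells. GATA3-AS1 measured 240.1 and 267 in SE day 3 cells against 0 and 0 in hESC, and 0.630 and 2.45 in shSP6 day 7 cells against 327 and 251 in scramble cells. GATA6-AS1 passed the filter of a mean of 10 at day 7 only, where it measured 7.88 and 8.36 in shFOXO4 cells against 37.3 and 58.0 in scramble cells, and 1.26 and 3.67 in shSP6 cells against 99.0 and 92.96 in scramble cells. All tested antisense genes were called in the direction of their neighbour in every comparison. Those tested in SE cells were under 10 in both hESC libraries and could only rise. All 3 at day 7 of shSP6, and GATA6-AS1 at day 7 of shFOXO4, were under 10 in both knockdown libraries and could only be lower. Of all genes 35.2% were called higher in SE cells, and 27.5% to 35.4% lower in the knockdowns. The library kit keeps strand, but the sources used here do not state that the counting used it, so reads of a GATA gene and of its antisense partner may not be fully told apart.

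Among 12 tested cofactors and partners of GATA proteins, the FOG genes went with GATA2, GATA3 and GATA6, and LMO2 went the other way. ZFPM2, which binds GATA4 in heart, measured 20.01 and 30.2 in SE day 3 cells and 4.82 and 4.33 in hESC. In shFOXO4 day 3 cells it measured 2.12 and 0.864, against 44.0 and 29.4 in scramble cells, and it was called lower in all 4 knockdowns. ZFPM1 was higher in SE cells, by 1.35 ± 0.18, and lower in each knockdown, with changes of -0.83 to -0.60. Without 1 library the shSP6 day 7 calls of ZFPM1 (in 3 of 4 fits) and of LMO2 (without shSP6 replicate 1) were lost. LMO2, a bridging partner of GATA1 and GATA2 in blood, measured 4.21 and 6.61 in SE day 3 cells and 50.1 and 45.5 in hESC. In shFOXO4 day 7 cells LMO2 measured 46.0 and 31.4, against 0.955 and 2.999 in scramble cells, and it was called higher in all 4 knockdowns. ZFPM2 in hESC and in shFOXO4 day 3 cells, and LMO2 in SE cells and in the day 7 scramble cells of shFOXO4, were under 10 in both libraries. Their direction in those comparisons was fixed by the filter. Over the list 8 genes were higher and 4 lower in SE cells, with a median of 0.35 against -0.02 over all genes. In shFOXO4 cells 4 were higher and 6 lower at day 3, and 4 higher and 7 lower at day 7, with medians of -0.08 and -0.41. In shSP6 cells 2 were higher and 5 lower at day 3, and 1 higher and 8 lower at day 7, with medians of -0.09 and -0.57. The median of all genes lay between -0.02 and 0.02 in every knockdown.

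The marker lists moved with the members in the knockdowns as well. All 15 surface ectoderm genes were called lower in each of the 4 knockdowns, with medians of -1.99 and -3.03 in shFOXO4 cells and -1.90 and -5.15 in shSP6 cells at day 3 and day 7. Of all genes 27.5% to 35.4% were called lower. At day 7 of shSP6, 5 of the 15 (TFAP2A, TFAP2B, MSX1, DLX5 and TP63) were under 10 in both shSP6 libraries and could only be lower. The same held for TP63 at day 3 of shFOXO4. MSX1, an ectodermal BMP target, measured 43.4 and 31.4 in shFOXO4 day 7 cells, against 4483 and 3633 in scramble cells. The summed list was 1633 to 1669 CPM in shSP6 day 7 cells and 8858 to 10181 CPM in scramble cells. Pluripotency genes were called higher in 13, 11, 11 and 10 of 13 cases in shFOXO4 day 3, shFOXO4 day 7, shSP6 day 3 and shSP6 day 7 cells, with 3 lower in the last. NANOG measured 3003 and 2949 in shFOXO4 day 7 cells and 69.7 and 25.0 in scramble cells. BMP ligand and response genes were called lower in 8, 10, 10 and 9 of 11 cases in the same order, and SMAD9 measured 109 and 118 in shFOXO4 day 3 cells against 410.5 and 443 in scramble cells. The part of a changed mixture of cells in the GATA changes was not tested.

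Markers of heart and endoderm, the tissues of GATA4 and GATA6, moved differently from each other. Cardiac mesoderm genes were called lower in 9 of 10, 8 of 11, 7 of 10 and 5 of 11 tested cases in shFOXO4 day 3, shFOXO4 day 7, shSP6 day 3 and shSP6 day 7 cells. In the same order 10, 7, 5 and 6 of the 14 listed genes were under 10 in both knockdown libraries. Those tested of these could only be lower. HAND1 measured 38.1 and 51.2 in shFOXO4 day 7 cells and 9990.3 and 8827 in scramble cells. NPPB, a natriuretic peptide of heart muscle, was the reverse at day 7 of shSP6, at 739 and 524 in shSP6 cells and 64.9 and 85.2 in scramble cells. In the endoderm list SOX7 was called lower in all 4 knockdowns and FOXA1 in 3 of them, with FOXA1 at 31.5 and 30.6 in shSP6 day 7 cells and 22.8 and 18.8 in scramble cells (not called), and CER1 and AFP were called higher in shSP6 cells on both days. CER1, a secreted inhibitor of Nodal and BMP signals, measured 461 and 413 in shSP6 day 7 cells, against 5.69 and 3.32 in scramble cells. CER1 and AFP were under 10 in both of these scramble libraries, so that they could only be higher at day 7. Of the tested endoderm genes 2 were higher and 3 lower of 5 at day 3 of shFOXO4, 3 higher and 2 lower of 5 at day 7, 3 higher and 3 lower of 7 at day 3 of shSP6, and 3 higher and 2 lower of 7 at day 7. The endoderm sum at day 3 was 26.7 to 26.9 CPM in shFOXO4 cells against 35.7 to 36.4 CPM in scramble cells, and 51.5 to 52.7 CPM in shSP6 cells against 35.8 to 44.0 CPM in scramble cells. At day 7 it came to 37.3 to 38.1 CPM in shFOXO4 day 7 cells against 21.8 to 23.2 CPM in scramble cells, and to 58.2 to 63.5 CPM in shSP6 day 7 cells against 25.0 to 26.0 CPM in scramble cells. HNF4A was listed at or below 2.52 in every library of the day 7 comparisons, and SOX17 at or below 3.998. Blood and endothelium genes went both ways at day 7, with 5 higher and 4 lower of 9 tested in shFOXO4 cells and 5 higher and 2 lower of 9 in shSP6 cells. Their sum was 237 to 260.3 CPM in shFOXO4 cells against 37.9 to 42.3 CPM in scramble cells. CDH5, an endothelial cadherin, measured 44.7 and 51.2 in shFOXO4 day 7 cells and 245.5 and 385 in scramble cells. KDR, a VEGF receptor of that list, measured 3397 and 3671 in shFOXO4 day 7 cells and 204 and 124 in scramble cells. KDR was also high in undifferentiated hESC, at 5537 and 5639. There it held 345 and 348 CPM of a list sum of 376 to 381 CPM. All 9 amnion genes were called lower at day 7 of both knockdowns, with 5 of the 9 under 10 in both shSP6 libraries. Of 10 trophoblast genes 7 were tested at day 7 of shFOXO4, with 6 lower and 1 higher, and 5 of the 8 listed were under 10 in both shFOXO4 libraries. At day 7 of shSP6 all 9 listed trophoblast genes were under 10 in both shSP6 libraries, so that the 5 tested could only be lower. Of 8 neural ectoderm genes 3 of 5 tested were called higher at day 7 of shFOXO4 and 4 of 6 lower at day 7 of shSP6. The part of these cell types in the GATA4 and GATA6 values was not tested.

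Genes most like each member were sought among 13592 genes, by the mean absolute difference of the 5 log2 changes. These genes carried a symbol and passed the filter on low values in all 5 comparisons. Genes with placeholder names (clones, loci, open reading frames and names in LINC, FAM, KIAA or MIR with a number) were left out. The 5 changes share no library, so likeness is over 5 comparisons, and it is a description. Closest to GATA2 were MSX2 (0.27), DLX6-AS1 (0.46), GREB1L (0.47), HOXA-AS2 (0.48) and GATA2-AS1 (0.62). GATA6 stood sixth and GATA3 seventh, at 0.72 and 0.73, and GATA4 stood at place 1894, at 3.65. MSX2 is an ectodermal BMP target, and its changes were 8.25, -2.07, -4.36, -1.87 and -5.93 in the order SE, shFOXO4 day 3, shFOXO4 day 7, shSP6 day 3 and shSP6 day 7. Closest to GATA3 were MEIS2 (0.44), HOXA3 (0.54), GATA2 (0.73), MSX2 (0.84) and DLX6-AS1 (0.85). Closest to GATA6 were DLX6-AS1 (0.53), DLX2 (0.53), SEMA6D (0.54), UPK2 (0.65) and PKDCC (0.66), with GATA2 at place 9 and GATA5 at place 10. Closest to GATA4 were ITGB2 (0.33), RYR3 (0.40), NUS1P2 (0.40), GAS7 (0.43) and RHOXF1P1 (0.48), and the other 3 members stood at places 13414 (GATA6), 13476 (GATA2) and 13502 (GATA3) of 13592.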

How the data were processed

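The authors deposited 5 tables of 4 libraries, named for DESeq2, whose values are gene read counts over 1 size factor per library (normalized counts, a signal unit). Each table was scaled separately. Per the submitters' processing notes, Trimmomatic 0.39, STAR 2.6.1, RSEM 1.3.0, DESeq2 1.20.0 and build hg19 were used, with no role or order given. The TruSeq Stranded mRNA kit was used, per the labels' protocols. Table columns of the knockdowns name arm and replicate, and the table's name gives the day and the knockdown. Undoing the size factor gave whole reads, within 0.001 read, for 100.0% of values in 18 of 20 libraries.

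Changes within a table were tested two-sided with limma 3.58.1 (R 4.3.3; lmFit, then eBayes with a trend) on log2(value + 1). Genes averaging 10 or more over the table's 4 libraries entered, with p-values adjusted over all of them by Benjamini-Hochberg and called under 0.05. Fold changes on this scale understate the change of low genes. Differences of effects used the 8 libraries of both tables. Intervals of ratios of reads are exact binomial, at 95%, and cover counting error only, as does the floor of 3 counts. edgeR 4.0.16 (quasi-likelihood) on recovered reads was an alternative in the 3 tables whose libraries all gave whole reads. Other alternatives were pseudocounts of 0.5 and 5, no filter, a mean of at least 50, TMM factors, 1 fit over 20 libraries, a replicate block and leaving out each library. The fits were tested on simulated data.

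Symbols (found for 29758 of 31155 identifiers) came from a gene name table, then GENCODE v29 and RefSeq, exon lengths from GENCODE v29 and promoter windows from RefSeq GRCh38.p14, choosing the window nearest a principal transcript start, and no gene coordinates of the counts are given because the authors' build differs. A promoter of GATA4 is not shown and was not searched as that of a member. The 12 lists hold 123 different genes, with a gene that is in more than 1 list counted once. Genes named were the 4 members, FOXO4 and SP6, up to 4 called genes per list and comparison with the largest change, and the 5 most like genes per member, and the text names a part of them. Some list genes, PECAM1 and PSG1 among them, were not analysed here. Members and lists were chosen with earlier results of these data known.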

Additional observations from a re-analysis of the deposited data

Results flagged for a closer look

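Differences between knockdown effects passed limma's test of the difference itself, and each is given as a log2 value with no explanation. For shFOXO4 the day 7 effect minus the day 3 effect was -1.81 for GATA2, -1.40 for GATA3, 2.23 for GATA4 and -0.59 for GATA6. For shSP6 the day 7 effect minus the day 3 effect was -4.37 for GATA2, -3.02 for GATA3 and -4.91 for GATA6. The shSP6 effect minus the shFOXO4 effect was 1.85 for GATA6 at day 3, and at day 7 it was -2.52 for GATA2, -1.78 for GATA3 and -2.48 for GATA6. Against a background of 35.1% to 62.7% of genes with such differences, these calls alone do not set the members apart.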

How the results depend on the processing

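Of 228 recomputed member changes 219 kept their direction and side of the threshold, and of 208 recomputed differences of effects 201 did, over pseudocounts of 0.5 and 5, no filter, a mean of at least 50, TMM factors, 1 fit over 20 libraries, the replicate block, edgeR on recovered reads and leave-one-out. GATA2, GATA3 and GATA6 kept all calls within comparisons. The GATA4 change of shFOXO4 day 3 ran from -1.14 to -0.93 without 1 library. That of shFOXO4 day 7 ran from 0.53 to 1.86, and without a filter it was 1.197 with an adjusted p of 0.0922. That of shSP6 day 7 ran from -0.22 to 0.62, with -0.0020 without shSP6 replicate 1. GATA4 could not be fitted at a mean of at least 50 in 4 of 5 tables. The GATA6 difference of shFOXO4 day 7 and day 3 was -0.59 with an adjusted p of 0.0897 in the fit over 20 libraries, and ran from -0.74 to -0.43 without 1 library. Without 1 library the shSP6 minus shFOXO4 difference at day 3 ran from -0.078 to 0.14 for GATA2, where -0.0225 was also found, and from -0.32 to -0.0073 for GATA3, and at day 7 from -1.67 to -0.33 for GATA4. Among other genes, uncalled changes turned sign without 1 library. FOXO4 in shSP6 day 3 cells ran from -0.21 to 0.086 and RYR3 there from -0.17 to 0.0155. In shFOXO4 day 3 cells NUS1P2 ran from -0.47 to 0.0835 and RHOXF1P1 from -0.66 to 0.0955, and NUS1P2 in shSP6 day 7 cells ran from -0.51 to 0.363, with 0.156 as another positive value. The causes were not tested. Counts of genes called stayed within 1.5 times in 58 of 58 recomputations. The replicate numbers were checked for pairing, with correlations of same-numbered deviations of -0.0503 to 0.0593, and the replicate block left the call of every member as it was, with GATA3 at -1.86 in shFOXO4 day 3 cells. Depth limits GATA4 and, in hESC and shSP6 day 7 cells, GATA6, which had few reads. edgeR called 11891, 9935 and 10414 genes in SE day 3, shFOXO4 day 3 and shSP6 day 7 cells, against 11710, 9838 and 10268 by limma, and could not be run in the other 2 tables.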
